A study of Mus musculus with 6 samples.

Results

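The genes of fatty acid oxidation in the liver, together with classical targets of the nuclear receptor PPARA, were compared between mice lacking Lmln and wild-type mice. They were 35 genes, chosen by name from the 55367 gene names of a liver count table, and all 35 were present. All 35 also had enough counts to be among the 18703 genes tested. They comprise the receptor gene itself and a partner transcription factor, the carnitine shuttle, mitochondrial and peroxisomal beta-oxidation, thioesterases, omega-hydroxylases and secreted or regulatory targets.

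The Lmln-KO group consisted of 3 liver libraries from Lmln-/- mice of the C57BL/6J strain, aged 46 weeks for replicates 1 and 2 and 39 weeks for replicate 3. The WT group consisted of 3 liver libraries from C57BL/6J mice aged 46 weeks. Lmln encodes invadolysin, a metalloprotease found on lipid droplets. The labels name no treatment and give neither the sex, the feeding state, the hour of collection nor the kind of Lmln allele. They number the replicates without saying that each came from its own animal, so p-values measure the spread between these libraries, part of which may be technical.

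In liver, long-chain fatty acids are activated to acyl-CoAs, carried into mitochondria by the carnitine shuttle and shortened there by repeated rounds of dehydrogenation, hydration, a second dehydrogenation and thiolysis. Peroxisomes shorten very long chains, and microsomal cytochromes P450 of the Cyp4a family oxidise the far end of the chain. PPARA, a receptor activated by fatty acids and most active in fasting, binds DNA with RXR and drives transcription of much of this pathway.

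Total counts ran from 17388360 to 22494696 per library. The disrupted gene, Lmln, kept 4, 12 and 2 counts across the Lmln-KO libraries, against 79, 80 and 39 counts across the WT libraries, and it passed in DESeq2 (adjusted p 2.3e-06) but not in edgeR (adjusted p 0.933). The libraries differed in their sex-chromosome transcripts within each group. Lmln-KO replicate 3 and WT replicates 2 and 3 held between 1880 and 1950 CPM of Xist, while Lmln-KO replicates 1 and 2 and WT replicate 1 held under 1 CPM of Xist and between 216 and 235 CPM of 4 summed Y-linked genes. CPM here is a gene's count scaled to the size of its library, with TMM factors. These are called the Xist libraries and the Y-linked libraries here, as a description of the libraries and not as groups of the study, and their part in the differences between libraries was not tested. The 10 hepatocyte markers summed to between 87800 and 96500 CPM in Lmln-KO livers and to between 97700 and 116000 CPM in WT livers. The tissue label thus held in both groups, although each Lmln-KO sum lay below each WT sum. In whole liver RNA, fewer cells of a type and less RNA per cell cannot be told apart.

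None of the 35 genes differed between Lmln-KO and WT livers in edgeR's quasi-likelihood test with Benjamini-Hochberg adjustment over all genes tested, where 0% of genes passed at 0.05. Their adjusted p-values lay between 0.933 and 0.998. Lmln itself, with a log2 fold change of -3.72, had an adjusted p of 0.933 in the same edgeR test, so such values do not show equal levels. Without adjustment 0 of the 35 had a p under 0.05, against 4.66% of all genes tested, and the smallest p was 0.218. Of the fitted log2 fold changes (Lmln-KO over WT) 18 were positive and 17 negative. Their median was 0.012, beside -0.0038 over all genes tested. DESeq2 passed 0 of the 35, against 0.128% of all genes, and also gave 0 of them an unadjusted p under 0.05. No gene of the set had 3 Lmln-KO libraries all above or all below the 3 WT libraries, whereas 4.61% of all genes were higher and 5.73% lower without overlap. The median depended on single libraries: it was -0.21 with Lmln-KO replicate 3 left out and 0.24 with WT replicate 2 left out.

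A second edgeR fit carried a term for the sex-chromosome transcripts, coded by whether Xist exceeded the Y-linked sum in a library. Of the 35 genes, 0 passed in it after adjustment, against 0.00535% of all genes, and 2 had an unadjusted p under 0.05, against 4.34% of all genes. Those were Hadhb and Angptl4. The log2 fold change was then positive for 27 genes and negative for 8, with a median of 0.099 beside -0.0022 over all genes tested. DESeq2 with the same term passed 0 of the 35, against 0.166% of all genes. A fit with an interaction between genotype and that term passed 0 genes of the set and 0 of all genes tested, with a smallest adjusted p of 1. Its 4 cells include 2 of a single library, so it says nothing about the set.

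**Figure D1:**
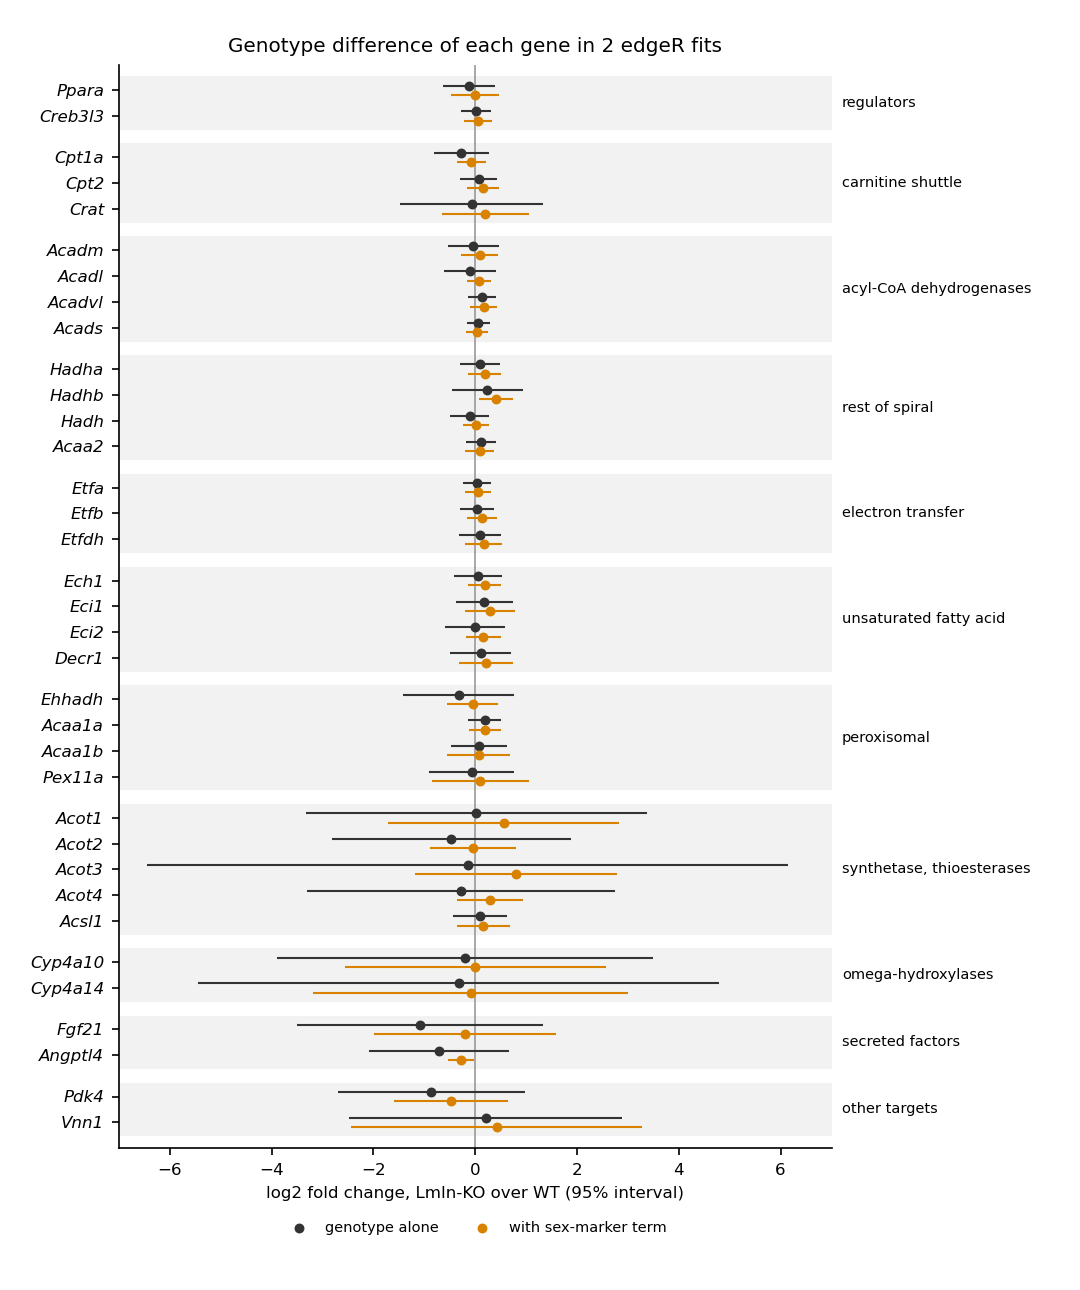
Each row is 1 gene, grouped by role, with the log2 fold change of Lmln-KO over WT on the horizontal axis, points for the edgeR estimate and lines for its 95% interval, in black for the fit on genotype alone and in orange for the fit with the sex-marker term. In the fit on genotype alone all 35 intervals include 0, and the interval of Acot3 runs from -6.45 to 6.15 while that of Acads runs from -0.16 to 0.29.

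How large a difference the 3 against 3 design left possible varied by gene, as the plot of fold changes with their intervals shows. The 95% interval of the log2 fold change lay inside -1 to 1 for 23 of the 35 genes by genotype alone and for 26 with the sex-marker term. By genotype alone the 12 others were Ehhadh, Acot1, Acot2, Acot3, Acot4, Cyp4a10, Cyp4a14, Pdk4, Fgf21, Angptl4, Vnn1 and Crat. For these a 2-fold difference in 1 direction or the other lay within the interval, so their values below do not show equal levels.

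What separated the libraries was a pattern that ran across both genotypes. Summed over the 35 genes, the level was 5760, 7186 and 10770 CPM in Lmln-KO replicates 1, 2 and 3, against 6387, 10870 and 7084 CPM in WT replicates 1, 2 and 3. Lmln-KO replicate 3 and WT replicate 2, both Xist libraries, stood above the other 4. Lmln-KO replicate 3 was the highest library for 17 genes and WT replicate 2 for 12, together 82.9% of the set, against 29% of all genes tested. The same 2 libraries took both of the top places for 26 of the 35 genes, which is 74.3%, against 9.65% of all genes tested. For 16 genes, or 45.7%, all 3 Xist libraries lay above all 3 Y-linked libraries, against 13% of all genes tested. WT replicate 3, the remaining Xist library, therefore lay below both of that pair for the 26 genes. The likeness of Lmln-KO replicate 3 and WT replicate 2 was not confined to the 35 genes. Over all genes tested their counts differed least of any 2 libraries, with a chi-square over its degrees of freedom of 12.2. Lmln-KO replicate 2 and WT replicate 1 came next, at 18.9. Lmln-KO replicate 3 was also the one labelled 39 weeks, while WT replicate 2 was labelled 46 weeks, and what the pair shared beyond Xist was not tested.

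**Figure D2:**
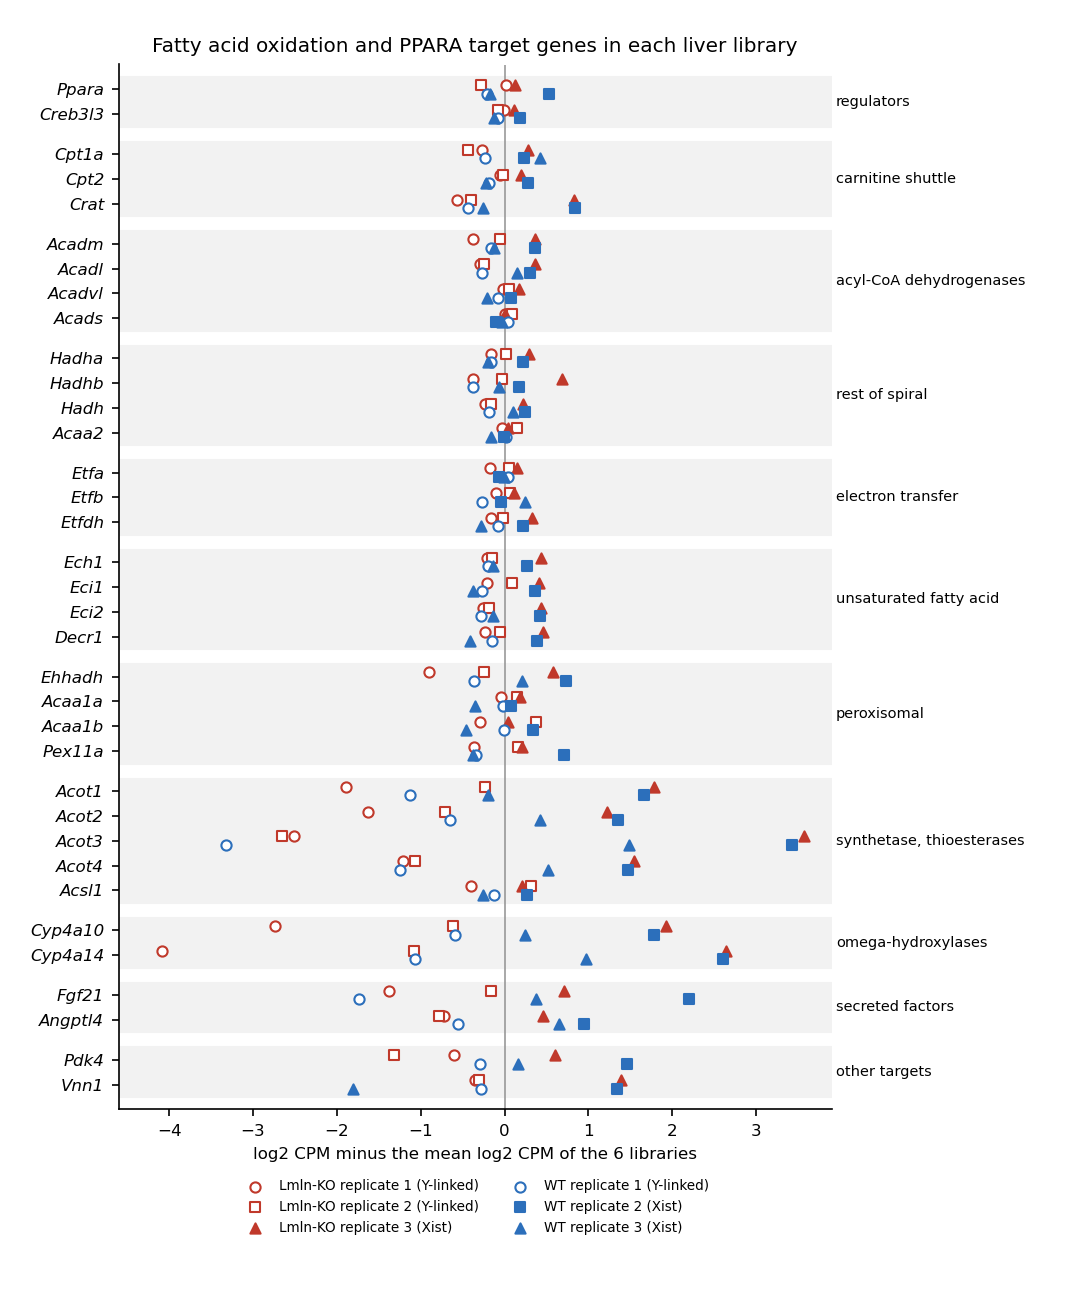
The horizontal axis gives log2 CPM minus the gene's mean log2 CPM over the 6 libraries, with 1 row per gene, red marks for Lmln-KO and blue marks for WT, filled for the Xist libraries and open for the Y-linked libraries. The filled red triangle (Lmln-KO replicate 3) and the filled blue square (WT replicate 2) lie together at the right for Acot1, Acot2, Acot3, Acot4, Cyp4a10 and Cyp4a14, and for Cyp4a10 and Cyp4a14 the open red circle (Lmln-KO replicate 1) lies alone at the left.

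The spread between libraries was itself uneven across the roles. The highest and lowest library differed by more than 1 on the log2 scale for 14 genes, or 40%, against 31.5% of all genes tested. They differed by more than 2 for 9 genes, or 25.7%, against 7.29% of all genes tested. Those 9 were Acot1, Acot2, Acot3, Acot4, Cyp4a10, Cyp4a14, Fgf21, Pdk4 and Vnn1. The smallest range of the set was 0.19, for Acads. The median range of the set, 0.82, was near the 0.69 of all genes tested.

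**Figure D3:**
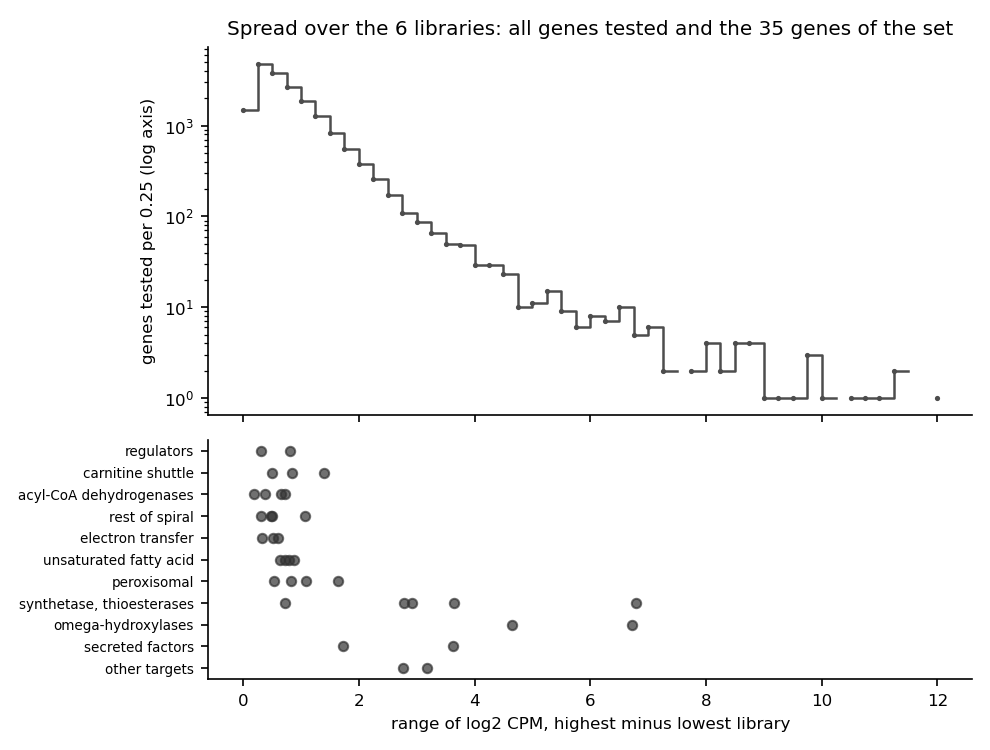
Upper panel, number of tested genes in each step of 0.25 of the range of log2 CPM between the highest and the lowest library, on a log axis. Lower panel, the range of each of the 35 genes by role on the same horizontal axis, where the 4 thioesterases (2.79 to 6.80) and both omega-hydroxylases (4.65 and 6.72) lie apart from the acyl-CoA dehydrogenases and later enzymes of the spiral (0.19 to 1.07).

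Of the regulators, Ppara encodes the receptor. It had 272, 219.6 and 291 CPM in Lmln-KO replicates 1, 2 and 3, against 231, 387 and 238 CPM in WT replicates 1, 2 and 3. WT replicate 2 was the highest library and the groups overlapped, with means of 261 ± 37.0 CPM in Lmln-KO livers and 285 ± 88.0 CPM in WT livers (SD, n = 3 each). The log2 fold change was -0.13 (SE 0.220, edgeR adjusted p 0.953), and -0.0047 (SE 0.2001) with the sex-marker term. Creb3l3 encodes CREBH, a liver transcription factor that acts with PPARA in fasting. Its levels were 232, 220.2 and 252 CPM in Lmln-KO livers and 222, 264 and 213 CPM in WT livers, a log2 fold change of 0.012 (SE 0.127). Both regulators were highest in WT replicate 2.

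Cpt1a encodes the liver isoform of carnitine palmitoyltransferase 1, the step at which malonyl-CoA limits entry of fatty acids into mitochondria. It had 396, 353 and 577 CPM in Lmln-KO livers, against 404, 558 and 637 CPM in WT livers. The 3 Xist libraries (Lmln-KO replicate 3, WT replicates 2 and 3) all stood above the 3 Y-linked ones, and the genotypes overlapped. Its log2 fold change was -0.27 (SE 0.234, edgeR adjusted p 0.933), and -0.079 (SE 0.125) with the sex-marker term. Cpt2, which rebuilds the acyl-CoA on the inner mitochondrial membrane, had 135, 139 and 161 CPM in Lmln-KO livers and 123, 171 and 121 CPM in WT livers. Crat, which moves short acyl groups between carnitine and CoA, had 36.4, 40.6 and 95.4 CPM in Lmln-KO livers and 39.7, 96.1 and 44.9 CPM in WT livers. Crat was thus more than 2-fold higher in Lmln-KO replicate 3 and WT replicate 2 than in each of the other 4 libraries, and its log2 fold change by genotype was -0.067 (SE 0.547).

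The acyl-CoA dehydrogenases catalyse the first step of each round and differ in the chain length they prefer. Acadvl, for very long chains, had 182, 192 and 208 CPM in Lmln-KO livers, against 175, 194 and 160.1 CPM in WT livers. The groups overlapped through WT replicate 2, and the log2 fold change was 0.14 (SE 0.119, edgeR adjusted p 0.933). Of the exon bases of Acadvl, 42.9% overlap Dvl2 on the opposite strand, so its level may be too low. Acads, for short chains, was the steadiest gene of the set. It had 129, 136 and 128 CPM in Lmln-KO livers, against 131, 119 and 125 CPM in WT livers, and its 95% interval for the log2 fold change ran from -0.16 to 0.29. Acadm, for medium chains, averaged 237 ± 60.7 CPM in Lmln-KO livers and 244 ± 51.7 CPM in WT livers. Acadl, for long chains, averaged 180 ± 47.9 CPM in Lmln-KO livers and 193 ± 37.8 CPM in WT livers (SD, n = 3 each). Acadm and Acadl were both highest in Lmln-KO replicate 3 and WT replicate 2.

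The later steps of the spiral are carried out by the trifunctional protein, whose alpha and beta subunits are encoded by Hadha and Hadhb, by the short-chain dehydrogenase Hadh and by the thiolase Acaa2. Hadha had 293, 334 and 402 CPM in Lmln-KO livers, against 293, 383 and 286 CPM in WT livers. Hadhb had 21.9, 27.9 and 46.0 CPM in Lmln-KO livers, against 21.9, 32.0 and 27.1 CPM in WT livers. Both subunits were highest in Lmln-KO replicate 3 and next highest in WT replicate 2, and the genotypes overlapped for each. Hadhb had the largest positive log2 fold change of the set by genotype alone, 0.24 (SE 0.291, edgeR adjusted p 0.936). With the sex-marker term it was 0.42 (SE 0.146, unadjusted p 0.0198, edgeR adjusted p 0.987), so it did not pass. Of the 36-base words in Hadhb exons, 22.3% also occur elsewhere in the annotation, chiefly in Gm13910 and Gm9108. Gm13910 is not among the gene names of the count table, while Gm9108 received between 126 and 228 counts per library. How many reads of Hadhb were left out of its count, or placed on Gm9108, is uncertain. Acaa2 had 654, 738 and 687 CPM in Lmln-KO livers and 674, 663 and 596 CPM in WT livers, a log2 fold change of 0.11 (SE 0.128). Hadh averaged 258 ± 45.3 CPM in Lmln-KO livers and 278 ± 41.0 CPM in WT livers (SD, n = 3 each).

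Electrons from the dehydrogenases pass through the electron transfer flavoprotein, encoded by Etfa and Etfb, to its ubiquinone oxidoreductase, encoded by Etfdh. Etfdh had 244, 269.8 and 344 CPM in Lmln-KO livers, against 259, 318 and 225 CPM in WT livers, again highest in Lmln-KO replicate 3 and WT replicate 2. Etfa averaged 141 ± 16.0 CPM in Lmln-KO livers and 137 ± 4.75 CPM in WT livers. Etfb averaged 24.1 ± 1.90 CPM in Lmln-KO livers and 23.4 ± 4.19 CPM in WT livers (SD, n = 3 each). Etfa and Etfb departed from the common order, since WT replicate 2 was not among the top pair of libraries for either. The 3 log2 fold changes lay between 0.033 and 0.096. Etfb shares 58.2% of its exon bases with other annotated genes, mainly Etfbl, which received 0 counts in every library. Reads in the shared bases may have been left out of both genes, so the level of Etfb may be too low.

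Unsaturated fatty acids need the isomerases Eci1 and Eci2, the dienoyl-CoA isomerase Ech1 and the reductase Decr1. Eci1 had 76.4, 94.2 and 118 CPM in Lmln-KO livers, against 73.3, 114 and 68.1 CPM in WT livers. Its log2 fold change was 0.18 (SE 0.237), and 0.30 (SE 0.205, edgeR adjusted p 0.987) with the sex-marker term. Ech1 averaged 217 ± 56.2 CPM in Lmln-KO livers and 208 ± 38.0 CPM in WT livers, and Eci2 averaged 125 ± 35.4 CPM in Lmln-KO livers and 126 ± 34.2 CPM in WT livers. Decr1 averaged 168 ± 43.8 CPM in Lmln-KO livers and 156 ± 45.6 CPM in WT livers (SD, n = 3 each). All 4 genes were highest in Lmln-KO replicate 3 and next highest in WT replicate 2.

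In peroxisomes, Ehhadh encodes the bifunctional enzyme, Acaa1a and Acaa1b encode thiolases, and Pex11a encodes a membrane protein of peroxisome division. Ehhadh had 199.5, 315 and 558 CPM in Lmln-KO livers, against 291, 619 and 433 CPM in WT livers. All 3 Xist libraries exceeded all 3 Y-linked libraries, and the log2 fold change was -0.32 (SE 0.445, edgeR adjusted p 0.94). Acaa1a had the smallest unadjusted p of the set by genotype alone, 0.218. Its levels were 155, 176 and 181 CPM in Lmln-KO livers and 157, 168 and 124 CPM in WT livers, a log2 fold change of 0.19 (SE 0.141, edgeR adjusted p 0.933). WT replicate 3 was the lowest of the 6 libraries. Acaa1b averaged 567 ± 129 CPM in Lmln-KO livers and 539.8 ± 146 CPM in WT livers, and Pex11a averaged 61.9 ± 12.7 CPM in Lmln-KO livers and 65.0 ± 30.2 CPM in WT livers (SD, n = 3 each). Acaa1a and Acaa1b share 21.4% and 47.0% of their 36-base words with other genes, chiefly with each other, so reads of these words may have been left out of both counts.

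Acsl1 encodes the main long-chain acyl-CoA synthetase of liver, while Acot1, Acot2, Acot3 and Acot4 encode thioesterases that release fatty acids from CoA in the cytosol, in mitochondria and, for the last pair, in peroxisomes. Acsl1 had 936, 1542 and 1436 CPM in Lmln-KO livers, against 1131, 1488 and 1033 CPM in WT livers, a log2 fold change of 0.099 (SE 0.229). The thioesterases differed far more between libraries. Acot3 had 2.50, 2.27 and 169.7 CPM in Lmln-KO livers, against 1.43, 153 and 39.9 CPM in WT livers, a 119-fold span between the highest and the lowest library. Acot1 had 5.48, 17.4 and 70.0 CPM in Lmln-KO livers, against 9.32, 64.5 and 17.7 CPM in WT livers. Acot4 had 34.5, 38.2 and 233 CPM in Lmln-KO livers, against 33.6, 222 and 115 CPM in WT livers. In each of these, Lmln-KO replicate 3 and WT replicate 2 were nearly level at the top, WT replicate 3 came next and the 3 Y-linked libraries lay below, for Acot1 only just in the case of Lmln-KO replicate 2. Acot2 had 2.21, 4.16 and 15.9 CPM in Lmln-KO livers and 4.33, 17.4 and 9.16 CPM in WT livers, with the same 3 libraries on top. The log2 fold changes by genotype were 0.020 (SE 1.25) for Acot1, -0.47 (SE 0.909) for Acot2, -0.15 (SE 2.33) for Acot3 and -0.28 (SE 1.13) for Acot4. With the sex-marker term that of Acot3 was 0.80 (SE 0.696, edgeR adjusted p 0.987) and that of Acot4 was 0.29 (SE 0.264, edgeR adjusted p 0.987).

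The 4 thioesterase genes lie close together on the plus strand of chromosome 12 in GRCm38, in the order Acot2 (chr12:83987861-83993873), Acot1 (chr12:84009490-84018371), Acot4 (chr12:84038379-84048601) and Acot3 (chr12:84052144-84060402). Between 16.6% and 34.4% of their 36-base words occur in other genes, for Acot1 and Acot2 chiefly in other members of the family and for Acot3 and Acot4 also in overlapping transcripts. The part of shared reads in their likeness across libraries was not tested. Their promoter windows are shown because these neighbouring genes were high and low in the same libraries. Each window runs 5′ to 3′ on the plus strand over the 250 bases before the transcription start and the 50 bases from it, 300 bases in all, as RefSeq gives it for GRCm38.p6. The windows are chr12:83987611-83987910 for Acot2, chr12:84009252-84009551 for Acot1, chr12:84038129-84038428 for Acot4 and chr12:84051894-84052193 for Acot3. Capitals mark matches to AGGTCANAGGTCA, the direct repeat with 1 spacer base that PPARA and RXR bind, or to its half-site AGGTCA, on either strand.
Acot2: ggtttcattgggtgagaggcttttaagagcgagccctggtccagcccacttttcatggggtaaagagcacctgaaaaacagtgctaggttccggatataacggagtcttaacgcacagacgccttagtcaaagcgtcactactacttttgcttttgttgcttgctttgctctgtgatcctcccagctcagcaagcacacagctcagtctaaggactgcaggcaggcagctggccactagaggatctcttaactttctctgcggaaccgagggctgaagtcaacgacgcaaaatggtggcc
Acot1: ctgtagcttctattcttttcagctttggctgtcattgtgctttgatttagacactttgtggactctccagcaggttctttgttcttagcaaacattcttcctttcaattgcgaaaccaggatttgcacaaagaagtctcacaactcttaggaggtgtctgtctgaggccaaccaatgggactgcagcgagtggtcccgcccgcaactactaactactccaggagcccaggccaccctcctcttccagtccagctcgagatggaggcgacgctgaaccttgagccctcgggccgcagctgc
Acot4: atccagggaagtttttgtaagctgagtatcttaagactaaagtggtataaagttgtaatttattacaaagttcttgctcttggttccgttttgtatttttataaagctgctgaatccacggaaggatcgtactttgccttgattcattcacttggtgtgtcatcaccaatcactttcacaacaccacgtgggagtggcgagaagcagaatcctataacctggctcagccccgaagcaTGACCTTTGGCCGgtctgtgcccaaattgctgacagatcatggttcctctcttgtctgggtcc
Acot3: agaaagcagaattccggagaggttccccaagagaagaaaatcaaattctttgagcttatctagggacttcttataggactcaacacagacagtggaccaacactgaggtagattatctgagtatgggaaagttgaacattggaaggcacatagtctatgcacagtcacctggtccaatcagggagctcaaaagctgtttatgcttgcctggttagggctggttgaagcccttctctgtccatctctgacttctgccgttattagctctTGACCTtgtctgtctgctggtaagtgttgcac
In the Acot4 window, bases 238 to 250 match the direct repeat on the minus strand with 2 mismatches over its 12 fixed letters. In the Acot3 window, bases 269 to 274 hold 1 half-site on the minus strand, and the Acot2 and Acot1 windows hold neither. Aligned in pairs, the 4 windows were between 46.1% and 48.3% identical. A window was found for 28 of the 35 genes. With up to 2 mismatches the direct repeat occurred in 3 of these, Etfa, Creb3l3 and Acot4, while 3.86% of all 32851 windows hold it. An exact half-site occurred in 6, namely Acadm, Creb3l3, Acadvl, Acot4, Acot3 and Cpt1a, while 16.3% of all windows hold it. In Creb3l3 and Acot4 the half-site lies within the direct repeat match. These letter matches describe the windows and say nothing about binding.

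Cyp4a10 and Cyp4a14 encode the microsomal omega-hydroxylases most strongly induced by PPARA activators in mouse liver. Cyp4a14 had 15.2, 122 and 1606 CPM in Lmln-KO livers, against 122, 1561 and 505 CPM in WT livers, a 106-fold span over the libraries. Cyp4a10 had 22.6, 97.8 and 570.2 CPM in Lmln-KO livers, against 100.1, 515 and 177 CPM in WT livers, a 25.3-fold span. Lmln-KO replicate 1 was the lowest library for both, Lmln-KO replicate 3 the highest and WT replicate 2 close beneath it. For both genes the SD within each genotype exceeded the difference between the genotype means. The log2 fold change was -0.33 (SE 1.90) for Cyp4a14 and -0.20 (SE 1.37) for Cyp4a10, with edgeR adjusted p-values of 0.988 and 0.991. Of the 36-base words of Cyp4a10, 40.1% occur elsewhere, chiefly in Cyp4a32 and Cyp4a31.

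**Figure D4:**
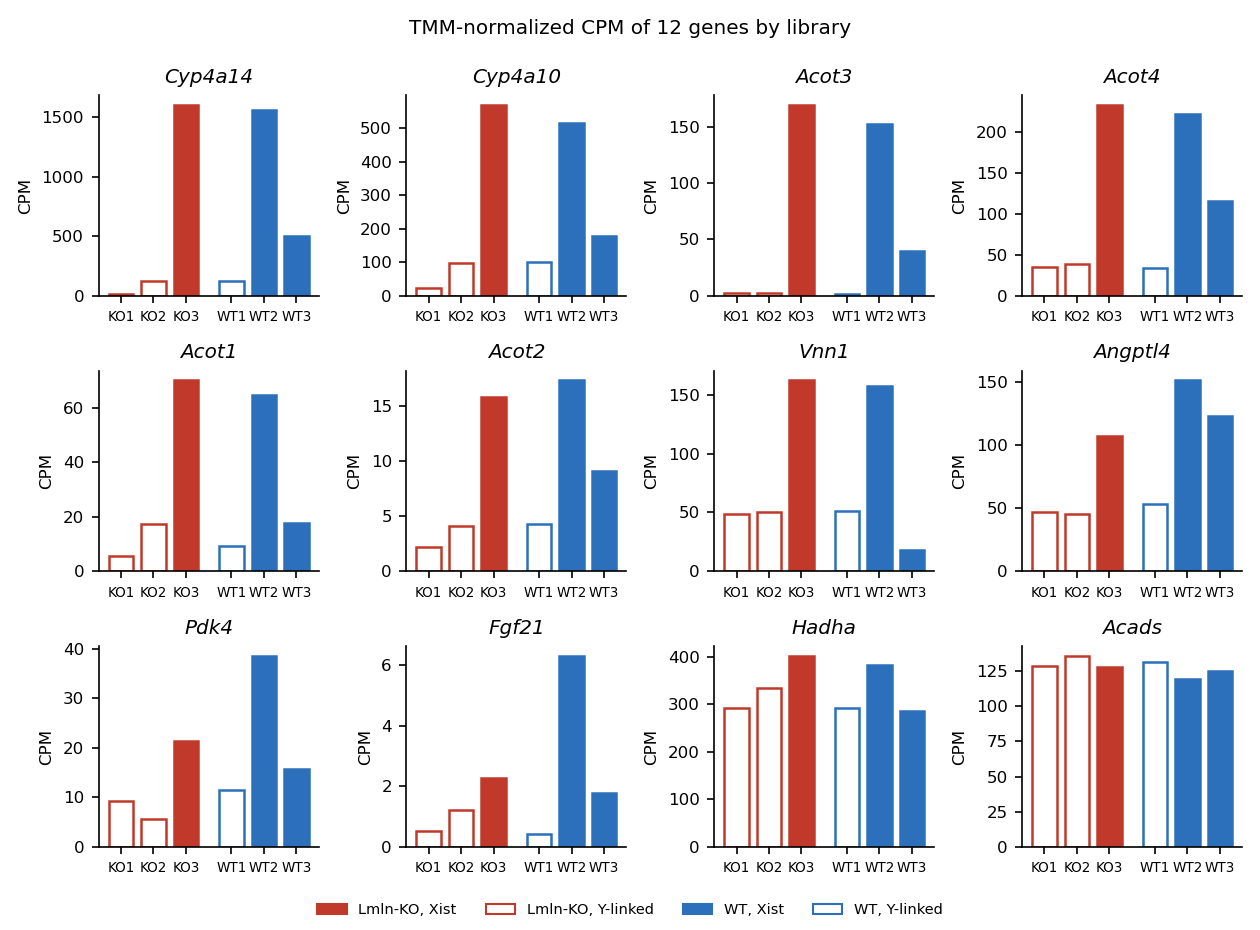
Bars start at 0 and give TMM-normalized CPM of 12 genes in each library, with Lmln-KO replicates 1 to 3 (red) left of WT replicates 1 to 3 (blue), filled for the Xist libraries and open for the Y-linked libraries, and each panel has its own vertical scale. Cyp4a14 stands at 1606 CPM in Lmln-KO replicate 3 and 1561 CPM in WT replicate 2, while Acads stays between 119 and 136 CPM in all 6 libraries.

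Fgf21 and Angptl4 encode secreted proteins, a fasting hormone made by the liver and an inhibitor of lipoprotein lipase. Angptl4 had 47.2, 45.4 and 107 CPM in Lmln-KO livers, against 53.3, 151 and 123 CPM in WT livers. Within the Y-linked libraries and within the Xist libraries the Lmln-KO values were the lower ones, although the genotypes overlapped as a whole. The log2 fold change was -0.71 (SE 0.537, edgeR adjusted p 0.933) by genotype alone. With the sex-marker term it was -0.28 (SE 0.114, unadjusted p 0.0373, edgeR adjusted p 0.987), so it did not pass, and the estimate was smaller. Fgf21 was the least abundant gene of the set, at 0.528, 1.23 and 2.26 CPM in Lmln-KO livers and 0.416, 6.31 and 1.79 CPM in WT livers. WT replicate 2 alone held its top value, and the log2 fold change was -1.08 (SE 0.980, edgeR adjusted p 0.933), the most negative of the set.

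Pdk4 encodes a kinase that switches off pyruvate dehydrogenase when fat is burned, and Vnn1 encodes pantetheinase, which frees the precursor of CoA. Pdk4 had 9.22, 5.62 and 21.3 CPM in Lmln-KO livers, against 11.4, 38.6 and 15.6 CPM in WT livers. WT replicate 2 was again the highest, and the log2 fold change was -0.86 (SE 0.709, edgeR adjusted p 0.933), or -0.48 (SE 0.426) with the sex-marker term. Vnn1 had 48.7, 50.1 and 162 CPM in Lmln-KO livers, against 51.1, 158 and 17.8 CPM in WT livers. Here WT replicate 3 was the lowest of all libraries although it is an Xist library, and the log2 fold change was 0.20 (SE 1.0, edgeR adjusted p 0.986).

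Between genes, levels were compared as CPM per kilobase of exon. Acaa2 was the most abundant transcript of the set on that scale, at 457 CPM per kilobase in Lmln-KO livers and 425 in WT livers. Acaa1b followed with 289 in Lmln-KO livers and 275 in WT livers, and Cyp4a14 with 223 in Lmln-KO livers and 280.4 in WT livers. The order of the last pair rests on the libraries, since the Cyp4a14 mean comes almost wholly from Lmln-KO replicate 3 and WT replicates 2 and 3. Ppara stood at 68.0 CPM per kilobase in Lmln-KO livers and 74.3 in WT livers, and Fgf21 was lowest at 1.41 in Lmln-KO livers and 2.98 in WT livers.

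Comparing the genotypes only between libraries of like sex-chromosome transcripts left 1 library on one side of each comparison, so those values carry no test. Among the Y-linked libraries (Lmln-KO replicates 1 and 2 against WT replicate 1) the log2 difference was positive for 21 of the 35 genes, with a median of 0.028, and for 9114 of all 18703 genes tested, with a median of -0.0071. Among the Xist libraries (Lmln-KO replicate 3 against WT replicates 2 and 3) it was positive for 30, with a median of 0.24, and for 9577 of all genes tested, with a median of 0.0085. That comparison sets Lmln-KO replicate 3 against a mean that includes WT replicate 3. Its Lmln-KO library was labelled 39 weeks and its WT libraries 46 weeks, so genotype and age cannot be told apart in it.

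Further genes of the same pathways were read in lists by function, and none of their members passed in edgeR with or without the sex-marker term. Of 20 other beta-oxidation genes, 14 log2 fold changes were positive and 6 negative, and their median was 0.061, while with the sex-marker term 10 were positive and 10 negative. Acox3, a peroxisomal acyl-CoA oxidase, had 40.0, 39.5 and 32.2 CPM in Lmln-KO livers against 31.0, 30.3 and 29.2 CPM in WT livers, without overlap (log2 fold change 0.30, SE 0.112). Acad10, a relative of the acyl-CoA dehydrogenases, had 29.4, 30.7 and 33.3 CPM in Lmln-KO livers against 35.9, 34.7 and 42.4 CPM in WT livers, also without overlap. Hacl1, which cleaves hydroxylated acyl-CoAs in alpha-oxidation, was highest in Lmln-KO replicate 3 (135 CPM) and WT replicate 2 (118 CPM), like most of the 35 genes.

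Ketone bodies are made from the acetyl-CoA that beta-oxidation yields. Of 6 ketogenesis genes 5 were tested, and 1 log2 fold change was positive and 4 were negative, around a median of -0.017. With the sex-marker term 4 were positive and 1 negative, around a median of 0.097. Of 8 further carnitine shuttle genes 3 were positive and 5 negative, with a median of -0.060, while with the term 6 were positive and 2 negative, with a median of 0.12. Of 15 tested genes of 17 for acyl-CoA synthesis and hydrolysis 8 were positive and 7 negative, with a median of 0.027, and with the term 9 were positive and 6 negative, with a median of 0.059.

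Among 10 other genes of microsomal omega-oxidation, 7 log2 fold changes were positive and 3 negative, with a median of 0.11, and 8 were positive and 2 negative with the sex-marker term. Cyp4a12b, an arachidonic acid hydroxylase of male mouse tissues, had 40.6, 56.3 and 0.0426 CPM in Lmln-KO livers, against 33.7, 0.0535 and 0.115 CPM in WT livers. It was thus found almost wholly in the Y-linked libraries. Cyp4a10 and Cyp4a14 were higher in every Xist library than in any Y-linked one, but were not confined to them. In Lmln-KO replicate 2 and WT replicate 1, both Y-linked, Cyp4a10 had 97.8 and 100.1 CPM and Cyp4a14 had 122 CPM in each. Of 39 other PPARA targets 38 were tested, with 19 positive and 19 negative and a median of 0.016, or 23 positive and 15 negative with the term. Gys2, the liver glycogen synthase, had a log2 fold change of -0.40 (SE 0.149, unadjusted p 0.0273 by edgeR), with 119, 144 and 127 CPM in Lmln-KO livers against 173, 142 and 200.1 CPM in WT livers. Abcd2, a peroxisomal transporter of very long acyl-CoAs, had 5.09, 6.75 and 140.5 CPM in Lmln-KO livers, against 11.1, 122.5 and 199 CPM in WT livers, with all 3 Xist libraries on top.

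Of 25 partners and coregulators of PPARA, 14 log2 fold changes were positive and 11 negative in either fit, and their median by genotype alone was 0.012. Lpin1, a phosphatidate phosphatase that also coactivates PPARA, had 71.8, 104 and 175 CPM in Lmln-KO livers, against 166, 302.5 and 470.5 CPM in WT livers. Of this list it alone passed in edgeR or DESeq2, each run with and without the sex-marker term. It did so when DESeq2 carried the sex-marker term (adjusted p 0.00683), while edgeR with that term gave a log2 fold change of -1.03 (SE 0.220, adjusted p 0.855). Foxa2, a hepatocyte pioneer factor, had 26.2, 50.8 and 25.9 CPM in Lmln-KO livers against 15.3, 21.9 and 14.8 CPM in WT livers, without overlap (log2 fold change 0.98, SE 0.315). Foxo1, which promotes fasting gene expression, had 59.7, 53.0 and 62.0 CPM in Lmln-KO livers against 63.2, 75.5 and 92.1 CPM in WT livers, also without overlap. Of 18 genes for energy sensing and malonyl-CoA, 7 were positive and 11 negative, with a median of -0.028, or 9 and 9 with the term.

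Because PPARA and several of its targets are known to follow the time of day, 17 core clock genes were read as well. Their log2 fold changes were positive for 12 and negative for 5 in either fit, and the median by genotype alone was 0.14. Per1 had 17.8, 13.8 and 42.4 CPM in Lmln-KO livers, against 32.4, 61.4 and 75 CPM in WT livers, and passed when DESeq2 carried the sex-marker term (adjusted p 0.0055) but not in edgeR with that term (adjusted p 0.35). Dbp, an output factor of the clock, had 41.2, 37.5 and 51.4 CPM in Lmln-KO livers against 29.4, 37.1 and 33.6 CPM in WT livers, without overlap. Whether the hour of collection bears on the order of the libraries for the 35 genes was not tested.

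Markers of other tissues that handle fatty acids were low. The 8 adipocyte markers summed to between 3.28 and 10.7 CPM in Lmln-KO livers and to between 3.53 and 15.1 CPM in WT livers, with Ucp1 at 0 in every library. The 9 muscle markers summed to between 2.88 and 4.39 CPM in Lmln-KO livers and to between 4.69 and 11.8 CPM in WT livers, with Myh1, Myh7 and Mb at 0. The 10 Kupffer cell and macrophage markers summed to between 306 and 353 CPM in Lmln-KO livers and to between 345 and 438 CPM in WT livers. All 10 had negative log2 fold changes in both edgeR fits, while by genotype alone 9466 of all 18703 genes tested were negative. Lower without overlap were 2 of the 10, against 5.73% of all genes tested. Of 8 stellate cell markers, which summed to between 385 and 549 CPM in Lmln-KO livers and to between 470 and 603 CPM in WT livers, 7 were negative, or 6 with the sex-marker term. Of 8 sinusoidal endothelial markers 6 were negative, or 5 with the term, and of 6 cholangiocyte markers 3 were negative in either fit. No gene of these lists passed in edgeR or DESeq2, with or without the term. The 8 B and plasma cell markers summed to between 20.8 and 38.6 CPM in Lmln-KO livers and to between 38.8 and 402 CPM in WT livers, with 6 of 6 tested markers negative in both edgeR fits. Their median log2 fold change was -2.29 by genotype alone and -1.60 with the term. The unadjusted edgeR p was under 0.05 for 6 by genotype alone, against 4.66% of all genes tested. With the term it was so for 2, against 4.34%. Lower without overlap were 5, against 5.73% of all genes tested, and 0 passed in edgeR in either fit. The DESeq2 results of the B and plasma cell markers are not given here. Of the 10 hepatocyte markers, 8 were negative and 2 positive by genotype alone, or 7 and 3 with the term. Of these 10, 0 passed in edgeR in either fit, and their DESeq2 results are not given here. The part of these cell types in the values of the 35 genes was not tested.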

How the data were processed

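Whole-number counts per gene name were deposited for 3 Lmln-KO and 3 WT liver libraries. Per the file headers, the authors counted reads over exons by gene name with featureCounts 2.0.1, using the GRCm38 annotation of Ensembl release 102, and did not normalize the counts. The headers show no option for read pairs, strand or reads that match several places, so mates were counted singly and without regard to strand. By default featureCounts leaves out reads that match several places or several genes. Genes with overlapping exons, on either strand, or with near-identical copies may therefore be undercounted. Subread 2.0.2 and edgeR 3.36.0 appear, beside featureCounts, in the submitters' processing notes. Which aligner was used is not given in these sources. Per the labels' protocols, ribosomal RNA was depleted, a directional kit was used and pairs of 36-base reads were sequenced.

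Here the counts were scaled by TMM and filtered with filterByExpr (minimum count 10), leaving 18703 genes with 99.8% of the counts. The test was edgeR 4.0.16 in R 4.3.3, robust quasi-likelihood, by genotype, with Benjamini-Hochberg adjustment over all genes tested at 0.05. SE is the absolute log2 fold change over the square root of F. Log2 CPM ranges used a prior count of 2. DESeq2 1.42.0, limma 3.58.1 (voom), other scalings, a minimum total of 1 count, the sex-marker term, the replicate number as a block and leaving out each library were alternatives, and so were, added after seeing the data, DESeq2, an interaction and left-out libraries in the fit with that term. The steps were tested on simulated counts. No 2 libraries agreed within counting error (smallest chi-square over its degrees of freedom 12.2).

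The genes and lists were chosen with earlier results of these data known. Values by library were given for Ppara, Cpt1a, up to 3 genes of smallest p in each direction, up to 4 of smallest p with the sex-marker term, the 4 of largest range and at least 1 gene of each role, and up to 3 genes were named per further list. The Lmln-KO animal of 39 weeks was kept in every fit except where its library was left out. Coordinates and overlaps came from the exons listed with the counts. Shared 36-base words came from GENCODE transcripts of GRCm38, not from the annotation used for counting. Promoter windows came from RefSeq (GRCm38.p6), matched by symbol for 28 of the 35 genes.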

Additional observations from a re-analysis of the deposited data

How the results depend on the processing

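None of the 35 genes passed under any setting run, in the fit by genotype or in the one with the sex-marker term. The number of all tested genes that passed was 0 by genotype with edgeR, 3 with a minimum total of 1 count, 24 with DESeq2, 1 with the sex-marker term, 1 with the replicate block and 16 with the sex-marker term and the replicate block together. With 1 library left out it lay between 0 and 3. With the sex-marker term it was 1 with edgeR and 31 with DESeq2, and between 0 and 4 with 1 library left out. The median log2 fold change of the 35 genes ran from -0.014 to 0.099 over other scalings, filters and tools and edgeR's sex-marker term. It was 0.11 with DESeq2 and that term together, -0.00054 with the replicate block and 0.22 with that block and the term together. Over left-out libraries it had its limits at -0.21 (Lmln-KO replicate 3 left out) and 0.24 (WT replicate 2 left out), and was 0.033 to 0.25 in the fit with the term. Genes of the set whose groups did not overlap numbered 0 with all libraries and between 0 and 6 with 1 left out. The 6 came without Lmln-KO replicate 3 (17.1% of the set, against 25.7% of all genes tested in that setting) and 4 without WT replicate 2 (11.4% against 20.3%), and in each left-out setting the share of the set was below that of all genes tested.

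The sign of a gene that did not pass is weakly held. With DESeq2 the log2 fold change of Eci2 was 0.0015. With the sex-marker term it was 0.015 for Hadh, 0.088 for Acadm, 0.070 for Acadl, 0.80 for Acot3, 0.29 for Acot4, 0.0021 for Cyp4a10, 0.16 for Eci2, 0.20 for Crat and 0.099 for Pex11a, each negative without the term. With the replicate block it was -0.27 for Acot1. The cause was not tested. Leaving out 1 library turned the sign of 25 genes, with these lowest and highest log2 fold changes: Acadm -0.24 to 0.15, Acadl -0.34 to 0.020, Acot3 -4.75 to 1.49, Acot4 -1.76 to 0.45, Cyp4a10 -2.13 to 0.73, Cyp4a14 -3.40 to 0.89, Eci2 -0.26 to 0.24, Crat -0.64 to 0.44, Pex11a -0.26 to 0.38, Acaa1b -0.11 to 0.28, Acsl1 -0.038 to 0.30, Cpt2 -0.018 to 0.25, Hadha -0.025 to 0.25, Hadhb -0.11 to 0.46, Acot1 -1.41 to 1.19, Vnn1 -0.61 to 1.34, Etfa -0.032 to 0.13, Etfdh -0.050 to 0.24, Ech1 -0.16 to 0.22, Decr1 -0.12 to 0.36, Creb3l3 -0.048 to 0.11, Etfb -0.074 to 0.18, Ppara -0.26 to 0.15, Acot2 -1.69 to 0.14, Fgf21 -1.69 to 0.28.

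The deviations of same-numbered libraries correlated at 0.465 for number 1, -0.311 for number 2 and 0.405 for number 3. Numbers 1 and 3 each join libraries of like sex-chromosome transcripts, and number 2 joins a Y-linked and an Xist library. Libraries of different number but like transcripts also correlated positively. The values were 0.473 for Lmln-KO replicate 2 with WT replicate 1 and 0.49 for Lmln-KO replicate 3 with WT replicate 2. These signs therefore cannot decide whether the numbers pair the samples, and the replicate block is an alternative only. With 3 libraries a group, SEs of up to 2.33 on the log2 scale limit what can be seen for the thioesterases and omega-hydroxylases. Fgf21, at 0.416 to 6.31 CPM, is also limited by depth.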
